A study of Mus musculus with 6 samples.

Results

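The receptors described here are G protein-coupled receptors of the fat cell that raise or lower the rate of lipolysis. They were chosen as a list of 9 genes by their known role, and 1 probe set stood for each gene: one annotated with a single symbol and, of several, the brightest over the 6 arrays. Of the 9 genes, 5 had such a probe set among the 19937 genes and 34760 probe sets of the series. These were Ptger3, Hcar1, Hcar2, Ffar2 and Ffar4, which all lower lipolysis. The beta adrenergic receptor genes Adrb1 and Adrb3, which raise it, and the inhibitory receptor genes Adra2a and Adora1 were not analysed here. The comparison therefore says nothing of the stimulatory arm itself.

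Adipose tissue was taken from 3 cavin-3 KO and 3 WT mice, and the RNA of each mouse was hybridised to 1 Affymetrix Mouse Gene 1.0 ST array. The KO mice carried the targeted allele on both chromosomes, in which a lacZ/neo fusion cassette takes the place of cavin-3, and the WT mice were their litter mates. All 6 mice were 10 weeks old, received standard chow and had fasted for 6 hours. The allele came from C57BL/6N ES cells, of 1 clone for the mice bred in Boston. The fat depot is not given in the labels. The tissue is bulk fat, so fewer cells of a type and less RNA per cell cannot be told apart.

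Lipolysis is the release of fatty acids from stored triglyceride. Receptors coupled to Gs, such as those for noradrenaline, stimulate adenylyl cyclase, and the cyclic AMP formed activates protein kinase A, which in turn releases the lipases from their restraint at the lipid droplet. Receptors coupled to Gi oppose this by inhibiting adenylyl cyclase. Among the inhibitory ligands are prostaglandin E2, lactate, the ketone body beta-hydroxybutyrate and fatty acids, so that products of the fat cell itself act back on it. Caveolae, the membrane pits that cavins help to form, are abundant in adipocytes.

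Each array measured the targeted gene as labelled. Cavin-3 had a log2 signal of 6.79, 6.78 and 7.12 in KO replicates 1, 2 and 3 and of 10.05, 10.90 and 10.45 in WT replicates 1, 2 and 3. All 8 adipocyte markers lay above the array median on all 6 arrays, and their summed intensity was 37535 to 39348 in KO and 35192 to 39040 in WT. There were 2 pairs of arrays that stood apart across genotype. KO replicate 3 and WT replicate 2 had a log2 signal of 11.34 and 11.15 for Xist, the RNA of the inactive X chromosome, against 3.70 to 6.30 on the other 4 arrays, and 3.21 and 3.36 for the Y-linked Uty, against 7.89 to 8.14. The methods of the study state that male animals were analysed, which these 2 arrays go against. The same 2 arrays were the highest for 5 of 5 brown and beige adipocyte markers (summed intensity 2002 in KO replicate 3 and 2092 in WT replicate 2, 281 to 519 on the others) and for 6 of 6 skeletal muscle markers (4721 and 4205, 535 to 1761 on the others). Only 1 of these 5 and 2 of these 6 markers lay above the array median on all 6 arrays. KO replicate 2 and WT replicate 1 were the highest for 5 of 5 smooth muscle markers (11619 and 12614, 2364 to 4741 on the others) and for 4 of 5 markers of mammary and other gland epithelium (1982 and 2626, 398 to 1334 on the others). They were also the highest in the summed epididymis markers (170 and 261, 114 to 123 on the others), but for only 2 of 5 singly. Of these markers 0 of 5 lay above the array median on all arrays, and of the gland epithelium markers 2 of 5. Rnase9 had a log2 signal of 5.79 and 7.06, against 2.90 to 3.18 on the others, and lay above the array median on 1 array. WT replicate 2 alone had the highest summed urothelium markers (2428, 498 to 804 on the others). Each receptor below is therefore given on every array, and its difference also without these pairs.

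None of the 5 receptor genes passed the test for a difference between cavin-3 KO and WT fat, and their KO to WT ratios lay between 0.852 and 1.24. By limma with Benjamini-Hochberg adjustment over all probe sets, 0 of the 5 passed an adjusted p of 0.05, where 2 of 34760 probe sets (0.00575%) did, 1 of them cavin-3. At an unadjusted p under 0.05 the count was 0 of 5 with limma, where 0.838% of all genes passed. Of all probe sets 1.95% passed (0.892% higher and 1.06% lower in KO). The KO and WT values overlapped for all 5 genes, and they were apart for 4.61% of all genes. Ptger3, Ffar2 and Ffar4 had a lower mean in KO, and Hcar1 and Hcar2 a higher one, as 50.3% of all genes had. The median log2 difference over the 5 genes was -0.04, against 0.00085 over all genes, and each lay within 1.5-fold, as did 99.6% of all genes. Each adjusted p given below comes from the same limma fit.

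**Figure D1:**
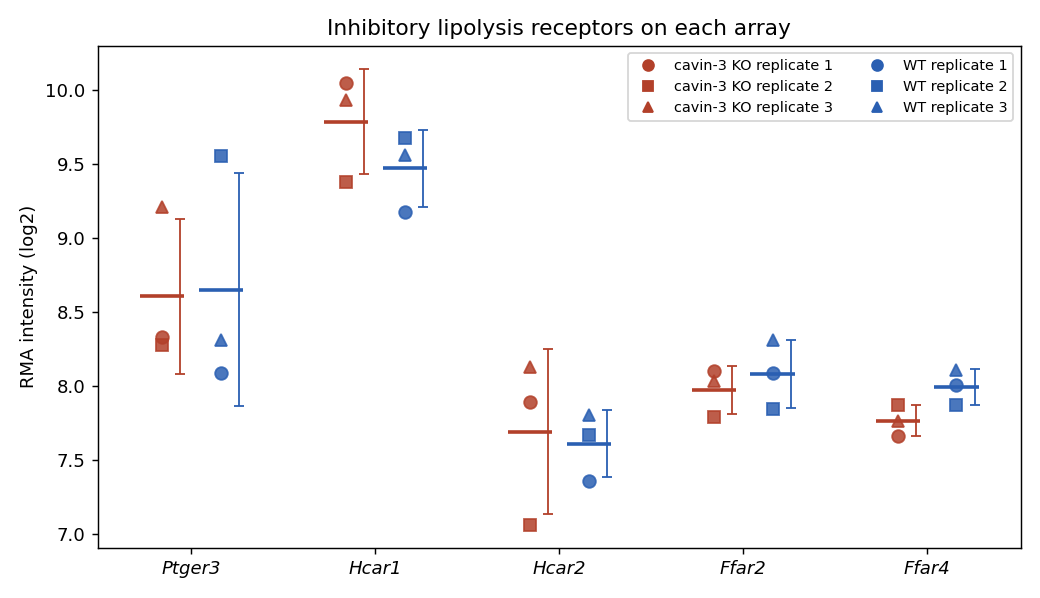
Log2 RMA intensity (vertical axis) of the 5 measured receptor genes (horizontal axis) on each array, with 1 point per mouse, cavin-3 KO in red and WT in blue, a line at the mean and a bar of 1 SD to either side. Ptger3 is highest in KO replicate 3 (9.21) and WT replicate 2 (9.55), and the KO and WT points of every gene overlap.

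Ptger3 encodes EP3, the prostaglandin E2 receptor through which that lipid lowers cyclic AMP in adipocytes. Its log2 signal was 8.33, 8.28 and 9.21 in KO replicates 1, 2 and 3 and 8.09, 9.55 and 8.31 in WT replicates 1, 2 and 3. One array of each genotype was high, KO replicate 3 by 0.91 and WT replicate 2 by 1.35 over the mean of the other 2 arrays of its genotype, and the remaining 4 lay between 8.09 and 8.33. Ptger3 averaged 8.61 ± 0.52 in KO and 8.65 ± 0.79 in WT (SD, n = 3 each), a level in KO of 0.970-fold that of WT (95% interval 0.465 to 2.02, adjusted p = 0.99999 from limma). Its spread over the 6 arrays, an SD of 0.60, was wider than that of 96.4% of all genes, and the median gene had an SD of 0.14.

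The 2 arrays high in Ptger3 are those high in Xist and in brown fat and muscle markers. They were the 2 highest arrays for 16.6% of all genes. Ucp1, the uncoupling protein of brown and beige adipocytes, had a log2 signal of 8.75 in KO replicate 3 and 8.56 in WT replicate 2, and of 4.31 to 4.52 on the other 4 arrays. The summed adipose progenitor markers were also highest on these 2 arrays, at 9347 in KO replicate 3 and 8222 in WT replicate 2. The others had 6924 to 8005, and singly only 2 of 5 of these markers were highest on the 2 arrays. The part of sex, brown fat, skeletal muscle, adipose progenitors or, in WT replicate 2, urothelium in the level of Ptger3 was not tested, and they cannot be told apart on these arrays. Without both arrays, Ptger3 was at 1.08-fold in KO (0.855 to 1.35), and without KO replicate 2 and WT replicate 1 at 0.896-fold (0.345 to 2.32). With the 2 arrays as a block, an alternative added after the data had been seen, its ratio of 0.970 had an interval of 0.773 to 1.22, narrower than with no block.

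Of 11410 other genes above the median signal, the gene most like Ptger3 over the 6 arrays was Maoa (Pearson's r 0.997), monoamine oxidase A, an enzyme that breaks down noradrenaline, followed by Hadhb (0.991), a subunit of the mitochondrial trifunctional protein of fatty acid oxidation. Maoa had 7.17, 7.15 and 7.52 in KO replicates 1, 2 and 3 and 7.05, 7.71 and 7.12 in WT replicates 1, 2 and 3, so it was high on the same 2 arrays. These correlations describe 6 arrays on which many genes moved together: 297 genes had an r above 0.9 with Ptger3.

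**Figure D2:**
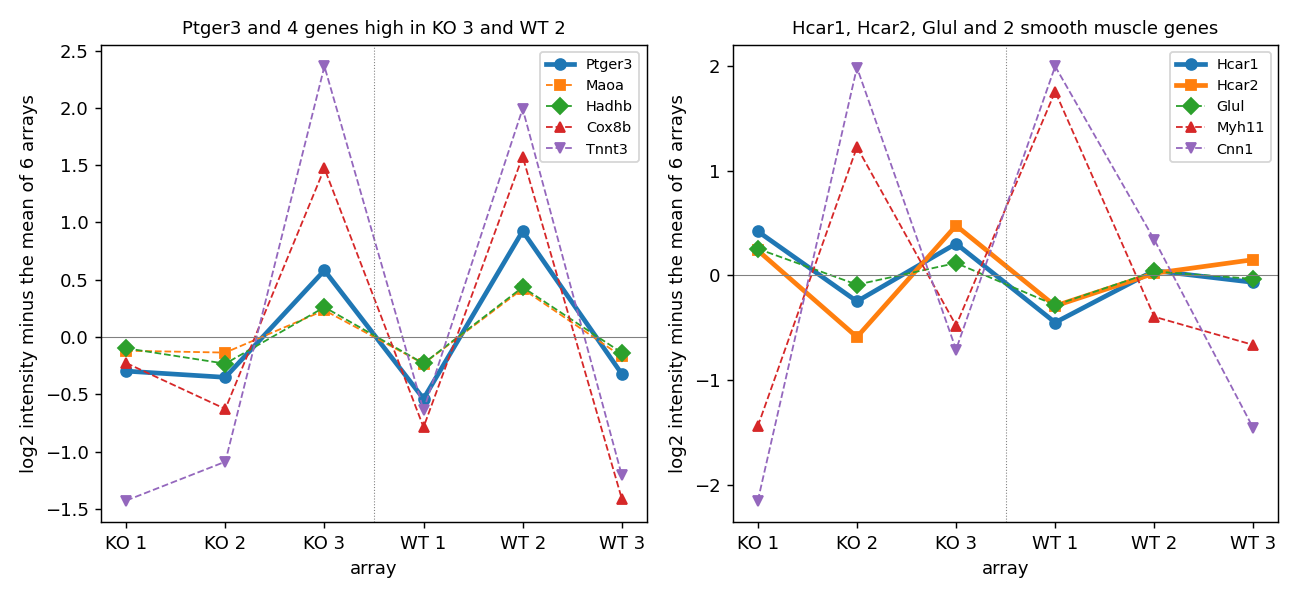
Log2 intensity minus the gene's mean over the 6 arrays (vertical axis) on each array, KO left and WT right of the dotted line, with receptors as thick lines. Left, Ptger3 peaks in KO 3 and WT 2 with Maoa, Hadhb, Cox8b of brown fat and Tnnt3 of skeletal muscle; right, Hcar1 and Hcar2 are lowest in KO 2 and WT 1, where Myh11 and Cnn1 of smooth muscle are highest.

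The bases in front of Ptger3 are shown because its level varied most among the receptors, and those of Hcar1 and Ffar4 because their KO and WT means lay farthest apart. They run 5′ to 3′ on the strand of the gene and end at the base before its annotated start (RefSeq, GRCm38.p6). The table used holds 7 of the 9 receptor genes, and the longest window shown is 250 bases. Capitals mark matches to any of 6 short motifs, read on both strands.
Ptger3, chr3:157566626-157566820, plus strand: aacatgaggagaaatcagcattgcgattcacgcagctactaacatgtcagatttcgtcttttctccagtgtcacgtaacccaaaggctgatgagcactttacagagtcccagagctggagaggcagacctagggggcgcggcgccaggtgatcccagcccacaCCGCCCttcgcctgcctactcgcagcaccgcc
Hcar1, chr5:123880004-123880253, minus strand: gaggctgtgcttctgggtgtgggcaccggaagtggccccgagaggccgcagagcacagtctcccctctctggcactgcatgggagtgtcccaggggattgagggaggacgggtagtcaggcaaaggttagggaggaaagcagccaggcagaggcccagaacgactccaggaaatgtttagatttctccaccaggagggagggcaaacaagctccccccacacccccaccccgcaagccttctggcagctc
Ffar4, chr19:38096829-38097078, plus strand: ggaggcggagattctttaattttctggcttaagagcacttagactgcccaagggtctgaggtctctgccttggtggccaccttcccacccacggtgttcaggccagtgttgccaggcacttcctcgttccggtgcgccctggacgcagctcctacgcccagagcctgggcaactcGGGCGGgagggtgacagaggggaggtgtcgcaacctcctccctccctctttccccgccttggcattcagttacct
The motifs searched were the CRE core TGACG of cyclic AMP response elements, AGGTCA as bound by many nuclear receptors, the CCAAT box, the TATA box in the form TATAAA, the GC box GGGCGG and the E-box CACGTG, and no match overlapped another. Ptger3 held 1 GC box, on the opposite strand (CCGCCC as printed), which 23.8% of the 32851 promoters hold within 195 bases. Ffar4 held 1 on its own strand, as do 32.7% within 250 bases on either strand, and Hcar1 held none of the 6. The CRE core was in none of the 3 windows and in 17.8% of promoters within 250 bases. Each share was taken over the first bases of every promoter entry, as many as the window holds. Those bases need not end at the annotated start of the gene. A match is only a match of letters.

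Hcar1 and Hcar2 are neighbours on chromosome 5 and encode receptors for small hydroxy acids. Hcar1 (GPR81) is the lactate receptor, through which lactate made in the fat cell lowers lipolysis. Its log2 signal was 10.05, 9.38 and 9.93 in KO replicates 1, 2 and 3 and 9.18, 9.67 and 9.56 in WT replicates 1, 2 and 3. KO replicates 1 and 3 lay above every WT array, whereas KO replicate 2 lay below WT replicates 2 and 3. Hcar1 averaged 9.79 ± 0.36 in KO and 9.47 ± 0.26 in WT (SD, n = 3 each), the highest ratio of the 5 at 1.24-fold (95% interval 0.868 to 1.78, adjusted p = 0.99999 from limma). Its difference was wider than that of 96.7% of all genes, and its SD over the 6 arrays, 0.33, was wider than that of 90.2% of them.

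Hcar2 (GPR109A) binds beta-hydroxybutyrate and the drug niacin, and it is also made by macrophages and neutrophils. It had 7.89, 7.06 and 8.12 in KO replicates 1, 2 and 3 and 7.36, 7.67 and 7.80 in WT replicates 1, 2 and 3. The highest and the lowest value were both in KO, so the WT range lay inside that of KO. It averaged 7.69 ± 0.56 in KO and 7.61 ± 0.23 in WT (SD, n = 3 each), at 1.06-fold (0.657 to 1.71, adjusted p = 0.99999 from limma). The 5 macrophage markers summed to 1896 to 2466 in KO and 1952 to 2638 in WT, with all 5 above the array median on all 6 arrays. The 5 neutrophil markers summed to 94.6 to 123 in KO and 100 to 110 in WT, with 0 of 5 above it, S100a8 among them at 3.20 to 3.56 on the log2 scale. Their part in the Hcar2 signal was not tested.

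Hcar1 and Hcar2 were both lowest on KO replicate 2 and WT replicate 1, the arrays high in smooth muscle and gland epithelium markers and in Rnase9. For 12.8% of all genes, Ptger3 among them, these were the 2 lowest arrays. The smooth muscle myosin gene Myh11 had 10.94 in KO replicate 2 and 11.47 in WT replicate 1, and 8.27 to 9.32 on the others. Pearson's r over the 6 arrays was 0.81 between Hcar1 and Hcar2, -0.88 between Hcar1 and the summed smooth muscle markers, and -0.87 between Hcar2 and those markers. With the summed epididymis markers r was -0.85 for Hcar1 and -0.70 for Hcar2, but only 2 of 5 were highest on KO replicate 2 and WT replicate 1. With the gland epithelium markers r was -0.60 and -0.82, and with the adipocyte markers 0.74 and 0.52. These lists share the same 6 arrays, and the part of each in the receptor signal was not tested. Without KO replicate 2, Hcar1 was at 1.43-fold (1.06 to 1.95) with an unadjusted p of 0.0286 from limma, and Hcar2 at 1.32-fold (0.978 to 1.77), yet both had an adjusted p of 0.99995. Without KO replicate 2 and WT replicate 1 together, a pair added after the data had been seen, Hcar1 was at 1.29-fold (1.03 to 1.62) and Hcar2 at 1.21-fold (0.929 to 1.57). Without WT replicate 1, Hcar1 was at 1.12-fold (0.767 to 1.65). Without KO replicate 3 and WT replicate 2, Hcar1 was at 1.27-fold (0.745 to 2.16) and Hcar2 at 0.930-fold (0.492 to 1.76).

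The genes most like Hcar1 were Spryd4 (r 0.986) and Glul (0.980), which encodes glutamine synthetase, and those most like Hcar2 were Oxr1 (0.994) and Ankrd13b (0.994). Glul had 11.96, 11.61 and 11.82 in KO replicates 1, 2 and 3 and 11.42, 11.74 and 11.67 in WT replicates 1, 2 and 3, the same order of arrays as Hcar1. An r above 0.9 was held by 98 genes with Hcar1 and by 112 with Hcar2.

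Ffar2 and Ffar4 encode receptors for free fatty acids of different chain length. Ffar2 (GPR43) responds to short-chain fatty acids such as acetate. Its log2 signal was 8.10, 7.79 and 8.03 in KO replicates 1, 2 and 3 and 8.09, 7.84 and 8.31 in WT replicates 1, 2 and 3, with the lowest array in KO and the highest in WT. It averaged 7.97 ± 0.16 in KO and 8.08 ± 0.23 in WT (SD, n = 3 each), at 0.928-fold (95% interval 0.723 to 1.19, adjusted p = 0.99999 from limma). Without WT replicate 3, its highest array, its log2 difference was 0.0064 (fold 0.776 to 1.30).

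Ffar4 (GPR120) responds to long-chain fatty acids, omega-3 fatty acids among them. Its log2 signal was 7.660, 7.871 and 7.760 in KO replicates 1, 2 and 3 and 8.004, 7.869 and 8.109 in WT replicates 1, 2 and 3. KO replicates 1 and 3 lay below every WT array, and KO replicate 2 was level with WT replicate 2. Ffar4 averaged 7.76 ± 0.11 in KO and 7.99 ± 0.12 in WT (SD, n = 3 each), at 0.852-fold (0.716 to 1.02, adjusted p = 0.99999 from limma). Its unadjusted p of 0.0672 from limma was the smallest of the 5, and its difference was wider than that of 93.0% of all genes. It had the narrowest spread of the 5 over all arrays, an SD of 0.16. Without each array in turn it stayed lower in KO, at 0.816-fold without WT replicate 2 (0.674 to 0.988, unadjusted p 0.0411) and at 0.887-fold without WT replicate 3 (0.723 to 1.09).

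The 2 arrays highest in Ptger3 were not the 2 highest in either fatty acid receptor. KO replicate 3 and WT replicate 2 differed from the other arrays of their genotype by 0.09 and -0.35 for Ffar2 and by -0.0050 and -0.19 for Ffar4. Without these 2 arrays Ffar2 was at 0.838-fold in KO (0.618 to 1.14) and Ffar4 at 0.817-fold (0.647 to 1.03). Without KO replicate 2 and WT replicate 1, Ffar2 was at 0.993-fold (0.699 to 1.41) and Ffar4 at 0.824-fold (0.637 to 1.07). The genes most like Ffar2 were Sfmbt1 (r 0.991) and Cebpg (0.983), and those most like Ffar4 were Homer3 (0.963) and Ppm1g (0.963), with 48 and 13 genes above 0.9. Among the receptors themselves, the pair Hcar1 and Ffar4 had the most negative r over the 6 arrays (-0.74). Ptger3 with Ffar2 (-0.40), Hcar2 with Ffar4 (-0.34) and Ptger3 with Ffar4 (-0.31) were also negative. The remaining pairs had an r of 0.12 to 0.81.

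**Figure D3:**
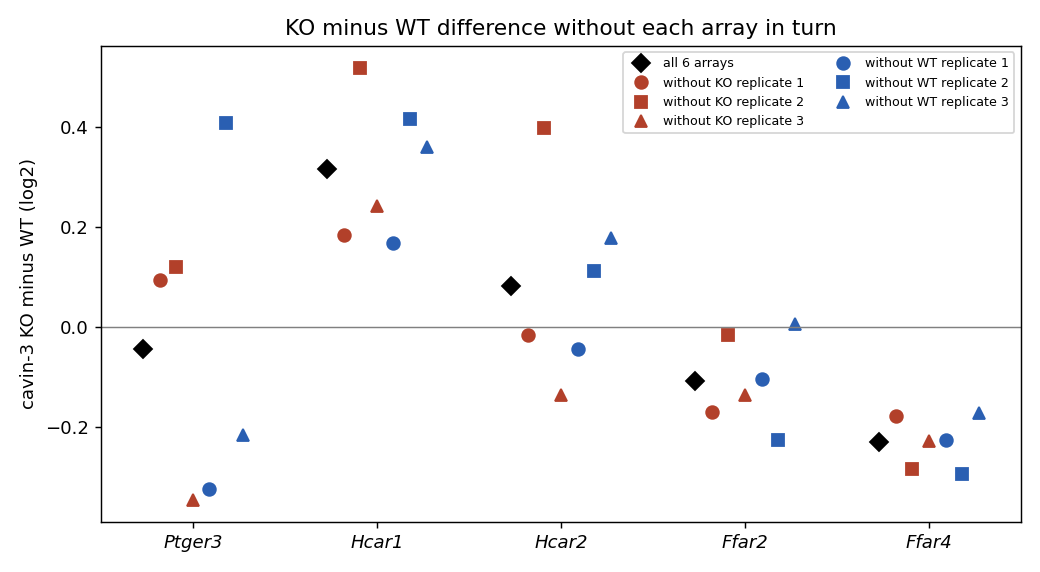
Log2 difference of cavin-3 KO minus WT for the 5 receptor genes with all 6 arrays (diamonds) and without 1 array (red, a KO array left out; blue, a WT array left out). Hcar1 stays above 0 and Ffar4 below 0 in all 7 fits shown, while Ptger3 runs from -0.35 without KO replicate 3 to 0.41 without WT replicate 2.

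Other receptors with a part in lipolysis also gave no call. Of all genes, 0.838% passed the unadjusted threshold, so a count of 0 in lists this short says little about their genes. Of 11 measured receptors coupled to Gs or to cyclic GMP, 8 were higher and 3 lower in KO in the mean, and 0 passed the adjusted or the unadjusted threshold. Tshr, the thyrotropin receptor, was at 0.975-fold in KO, with 10.55, 10.40 and 10.55 in KO replicates 1, 2 and 3 and 10.44, 10.45 and 10.73 in WT replicates 1, 2 and 3. Npr2, which makes cyclic GMP when it binds C-type natriuretic peptide, was at 1.04-fold. Gipr, the receptor of the gut hormone GIP, and Mc5r, a melanocortin receptor, had the smallest unadjusted p of this list and were at 1.16-fold and 1.20-fold, and their KO and WT values overlapped. Gipr lay above the array median on 4 of the 6 arrays and Mc5r on 5. Of 5 measured receptors coupled to Gi, 5 had a lower mean in KO and 0 passed either threshold. Adra2c, Npy1r and Ffar3 lay above the array median on 0 arrays and Cnr1 on 1, so most of this list had a low signal. Sucnr1, the receptor for succinate, lay above it on all 6 arrays and was at 0.967-fold. Cnr1, the cannabinoid receptor, was at 0.912-fold. Adra2c, an adrenergic receptor of the alpha-2 class, was at 0.952-fold with 4.982 to 5.039 in KO and 5.044 to 5.119 in WT, below the median signal, and its groups did not overlap. It was the 1 such gene of all 93 pathway genes (1.08%), against 4.61% of all genes.

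**Figure D4:**
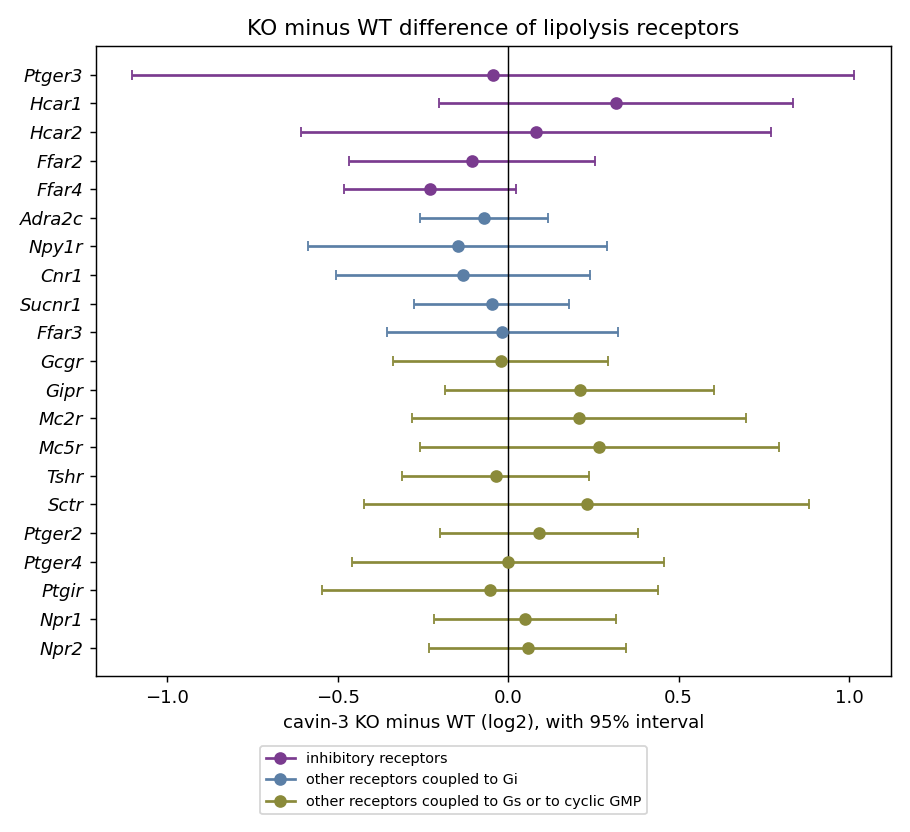
Log2 difference of cavin-3 KO minus WT (points) with its 95% interval from limma (bars) for the 5 inhibitory receptors, 5 other receptors coupled to Gi and 11 coupled to Gs or to cyclic GMP. Every interval crosses 0, and that of Ptger3 is the widest, from -1.10 to 1.02.

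The supply of ligands was measured through 13 genes, of which 5 were higher and 8 lower in KO in the mean. Ldha and Ldhb encode the subunits of lactate dehydrogenase, which makes the ligand of Hcar1. Ldha was at 1.03-fold and Ldhb at 0.804-fold, with Ldhb highest on KO replicate 2 (8.76) and WT replicate 1 (8.95), the arrays lowest in Hcar1. Slc16a1, a transporter of lactate and ketone bodies, was at 1.12-fold, and Npr3, which clears natriuretic peptides, at 0.953-fold. The route to prostaglandin E2, the ligand of EP3, had the phospholipase gene Plaat3 at 0.996-fold, the synthase gene Ptges at 0.951-fold and Ptgs2, which encodes cyclooxygenase-2, at 1.16-fold with an interval of 0.0371 to 36.0. These genes were named after their values were seen. Ptgs2 had 6.45, 12.18 and 6.29 in KO replicates 1, 2 and 3 and 11.55, 6.39 and 6.34 in WT replicates 1, 2 and 3. Ptges had 9.36, 10.47 and 9.21 in KO replicates 1, 2 and 3 and 10.21, 9.74 and 9.30 in WT replicates 1, 2 and 3. Both enzymes were thus highest on KO replicate 2 and WT replicate 1, the arrays lowest in Ptger3, Hcar1 and Hcar2. The smooth muscle markers were highest there, as were Rnase9 and the gland epithelium markers Epcam, Krt8, Krt18 and Ltf, the last at 7.70 in KO replicate 2 and 8.82 in WT replicate 1, against 4.30 to 4.54 on the others, and the part of these markers in the enzymes' signal was not tested.

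No gene of the chain inside the cell passed either threshold, where 0.838% of all genes passed the unadjusted one. Of 15 measured genes of G proteins and their regulators 9 were higher and 6 lower in KO, with Gnb1 and Gnai2, a beta and an inhibitory alpha subunit, at 1.01-fold each, Gnb2 at 0.919-fold and Rgs5, a regulator of G protein signalling, at 1.11-fold. Of 9 adenylyl cyclases 6 were higher and 3 lower, with Adcy5 at 1.13-fold and Adcy6 at 0.969-fold. Adcy2, above the array median on 0 arrays, was at 1.14-fold. Of 12 phosphodiesterases, which break down cyclic nucleotides, 6 were higher and 6 lower. Pde3b, through which insulin lowers cyclic AMP in fat, was at 0.980-fold, with 11.18, 10.90 and 11.11 in KO replicates 1, 2 and 3 and 11.18, 10.89 and 11.21 in WT replicates 1, 2 and 3. Pde2a was at 1.20-fold, with 9.26 to 9.44 in KO and 8.89 to 9.35 in WT. Pde4c, also above the array median on 0 arrays, was at 1.07-fold.

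Of 12 genes of protein kinase A, its anchors and related kinases 8 were higher and 4 lower in KO. Prkar2b, the main regulatory subunit of fat cells, was at 1.04-fold and Prkar1a at a log2 difference of -0.00056. Akap1, an anchor protein, was at 1.10-fold and Prkg1, the kinase activated by cyclic GMP, at 1.09-fold. Of 11 genes of lipases, their cofactors and droplet coats 7 were higher and 4 lower. Cidec, a droplet protein, was at 1.05-fold, Fabp4, the fatty acid carrier, at 0.976-fold, G0s2, an inhibitor of the main triglyceride lipase, at 0.859-fold and Pnpla3 at 0.818-fold (95% interval 0.651 to 1.03). Over all 88 pathway genes besides the 5 receptors, 49 were higher and 39 lower in KO (median log2 difference 0.013), 88 lay within 1.5-fold, and 0 passed an unadjusted p of 0.05 with limma, where 167 of all 19937 genes (0.838%) did.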

How the data were processed

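RNA of adipose tissue was hybridised to 6 Affymetrix Mouse Gene 1.0 ST arrays, 3 of cavin-3 KO and 3 of WT mice. The authors amplified and labelled the RNA and used GenePattern modules on the scans. The deposited table holds the intensity of each probe set on a linear scale, made by RMA according to the processing notes of the submitters, which corrects background, quantile normalizes and summarises probes. The annotation's genome build and the RMA version are not given in the sources used here. No depth exists for arrays, and their number limits the precision.

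Values were taken to log2 and fitted with limma 3.58.1 (lmFit, eBayes) in R 4.3.3 without covariates. Two-sided p-values were adjusted by Benjamini-Hochberg over all 34760 probe sets. Folds are log2 differences turned back to a linear ratio, with 95% intervals. An exact permutation test of 3 against 3 arrays cannot go below 0.10 and was not used. Of the probe sets, 21640 have 1 symbol, 1321 several and 11799 none in the annotation used here. The receptors and the lists of pathway genes (93 of 107 measured) and markers were chosen with earlier results of these data known. Named were the receptors, per list the 2 genes with the smallest p and the 2 brightest, and per receptor the 2 genes most correlated with it. Alternatives changed the test (the methods' t-test on log2 or linear values), the scaling (quantile, centring on the median), the variance model (trend and robust, array weights), the filter on low signal, the block (replicate number) and the arrays used. The fit was tested on simulated data.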

Additional observations from a re-analysis of the deposited data

How the results depend on the processing

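The KO minus WT differences of Ptger3, Hcar2 and Ffar2 were smaller than the SD within either genotype, and they changed direction when some arrays were left out. Hcar1 stayed higher and Ffar4 lower in KO under every alternative run, at 0.17 to 0.52 and -0.29 to -0.17 on the log2 scale. The t-test on log2 values, the filter, the trend and robust variance and the blocks cannot change these differences. Only the other alternatives could move them. The smallest adjusted p of either gene was 0.99957, from limma without WT replicate 3. Without single arrays or the 2 pairs of arrays, Ptger3 ran from -0.35 to 0.41, Hcar2 from -0.13 to 0.40, Ffar2 from -0.25 to 0.0064, and the median of the 5 from -0.14 to 0.12. Array weights turned the log2 difference of Hcar2 to -0.088. The number of receptors with an unadjusted p under 0.05, 0 in the reported fit, was 1 with array weights (Ffar4) and 0 to 1 without arrays: Ffar4 without WT replicate 2, Hcar1 without KO replicate 2 and Hcar1 without KO replicate 2 and WT replicate 1. The number of probe sets past an adjusted p of 0.05, 2 in the reported fit, was 0 with the methods' t-test on log2 or on linear values, 0 with the replicate block, and 0 to 2 without arrays. The methods' t-test on log2 values gave 0 of the 5 receptors and 0 of the 88 other pathway genes an unadjusted p under 0.05, where 347 of all 19937 genes had one, and none of these genes an adjusted one. The cause was not tested.

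Deviations from the group means correlated at -0.15, -0.37 and -0.09 between KO and WT arrays of the same replicate number. They correlated at 0.52 between KO replicate 2 and WT replicate 1 and at 0.48 between KO replicate 3 and WT replicate 2. Between KO replicate 1 and WT replicate 3 the value was 0.37. With 3 arrays a group, these values cannot settle whether the mice were paired. Each replicate block holds 1 KO and 1 WT array, so it cannot change a receptor difference, only its interval and p. It changed no call of a receptor. Each receptor had 1 probe set, so averaging a gene's probe sets gives the same values and was not run. The 2 fits with the Xist-high arrays as a block and without KO replicate 2 and WT replicate 1 were chosen after seeing the data. Signal over background could not be judged from the deposited values.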
